A study of Mus musculus with 2 samples.

Results

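The genes described here encode the protein machinery of pre-mRNA splicing, and they were taken from the deposited gene table by symbol: those starting with Hnrnp, Srsf, Sfrs, Snrp, Sf3a, Sf3b or U2af, and Lsm or Prpf followed by a digit. The rule found 78 of the 23235 genes in the table, and no pseudogene symbol or row with several symbols had to be dropped from them. They fall into 18 hnRNP genes, 12 SR genes (11 Srsf genes and Sfrs18), 12 Snrp genes, 8 SF3 genes, 3 U2AF genes, 12 LSm genes and 13 Prpf genes. The values come from 2 mouse leukaemias, APL#1 and APL#2, which per the series are clones with unlike frequencies of the cells that can start the disease. Both are acute promyelocytic leukaemias, in which the PML-RAR fusion protein holds myeloid cells at the promyelocyte stage. Both leukaemias carried PML-RAR, which the labels give once as an mCG-PML-RAR transgene and once as a knock-in, on C57BL/6-Ly5.2 mice with an age of 10 weeks. For APL#1, 2000000 cells were injected into C57BL/6-Ly5.1 recipients that had not been irradiated, and for APL#2 it was 200000 cells. CD45.2+ cells were then purified from spleen on immunomagnetic columns. The labels call both samples untreated, although their titles contain VEH.

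Each leukaemia was represented by 1 library, so the differences have no replicate check, no test was run, and leukaemia, recipient, cell dose and library cannot be told apart. Levels are in FPKM, fragments per kilobase of transcript and per fixed number of fragments in the library, which allows levels to be compared between genes. From the steps between low values, FPKM 1 stood for about 51.4 fragments per kilobase of transcript in APL#1 and about 55.7 in APL#2, and counting such numbers carries an error of 13.9% and 13.4%. All 7 promyelocyte genes checked were above FPKM 1 in both libraries, among them Mpo at 661.8 and 157.3 FPKM and Cebpe at 8.20 and 7.40. All the B cell, T cell, NK cell, erythroid and dendritic cell markers found in the table were under FPKM 1 in both. The megakaryocyte, macrophage and stromal lists each held genes above it, such as Itga2b at 2.34 and 3.95 FPKM, Vcam1 at 3.94 and 7.47 and Pecam1 at 3.62 and 1.62, while Pf4 was listed at 0 in both and C1qa at 0.0597 and 0.0552. The part of such cells in the differences below was not tested. In bulk RNA, fewer cells of a type and less RNA per cell cannot be told apart.

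Splicing removes introns from newly made transcripts. The spliceosome is built from small nuclear RNAs carried in rings of Sm or LSm proteins, from branch point and splice site factors such as SF3 and U2AF, and from the Prpf proteins that assemble and remodel it. SR proteins mostly bind exons and promote their use, whereas hnRNP proteins coat the transcript and often repress nearby splice sites. Splicing factor genes, SF3B1, U2AF1 and SRSF2 among them, are recurrently mutated in human myeloid neoplasms, which the present RNA levels do not address.

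Splicing genes were expressed at similar levels in both leukaemias, with a few members standing apart. Of the 78 members, 64 had a mean FPKM of at least 1 over the libraries and are called measured. The other 14 were 8 Prpf genes, 4 LSm genes, Srsf12 and Snrpn. Summed over all 78 members, FPKM was 366.1 in APL#1 and 311.9 in APL#2, which was 1.05% and 0.885% of all FPKM in the library. Most members leaned toward APL#1: the value was lower in APL#2 in 53 of 64, and it was lower in 71.6% of all 4100 measured genes. Differences are therefore given on the log2(FPKM + 1) scale, APL#2 minus APL#1, either as they stand or relative to the median of all measured genes, which was -0.17.

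On the relative scale the members split evenly, 32 above the all-gene median and 32 below it, and their own median was -0.003. Their quartiles were -0.15 and 0.09, against -0.19 and 0.22 for all measured genes, and 58 of 64 members lay within 1.5-fold of the all-gene median, against 85.9% of all measured genes. At a 2-fold cut on log2(FPKM + 1), no member was higher in APL#2 (2.10% of all measured genes were) and 2 were lower, Hnrnpa3 and Snrpb (2.44% of all measured genes were). The cut matters for these counts: relative to the all-gene median, 1 member was at least 2-fold higher, Hnrnpa1 (2.93% of all measured genes were), and none was at least 2-fold lower (1.76%), since Hnrnpa3 and Snrpb then stood at -0.997 and -0.967. By the plain ratio of FPKM, Hnrnpa1 was at least 2-fold higher (3.39% of all measured genes) and Hnrnpa3 and Snrpb at least 2-fold lower (6.83%).

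**Figure D1:**
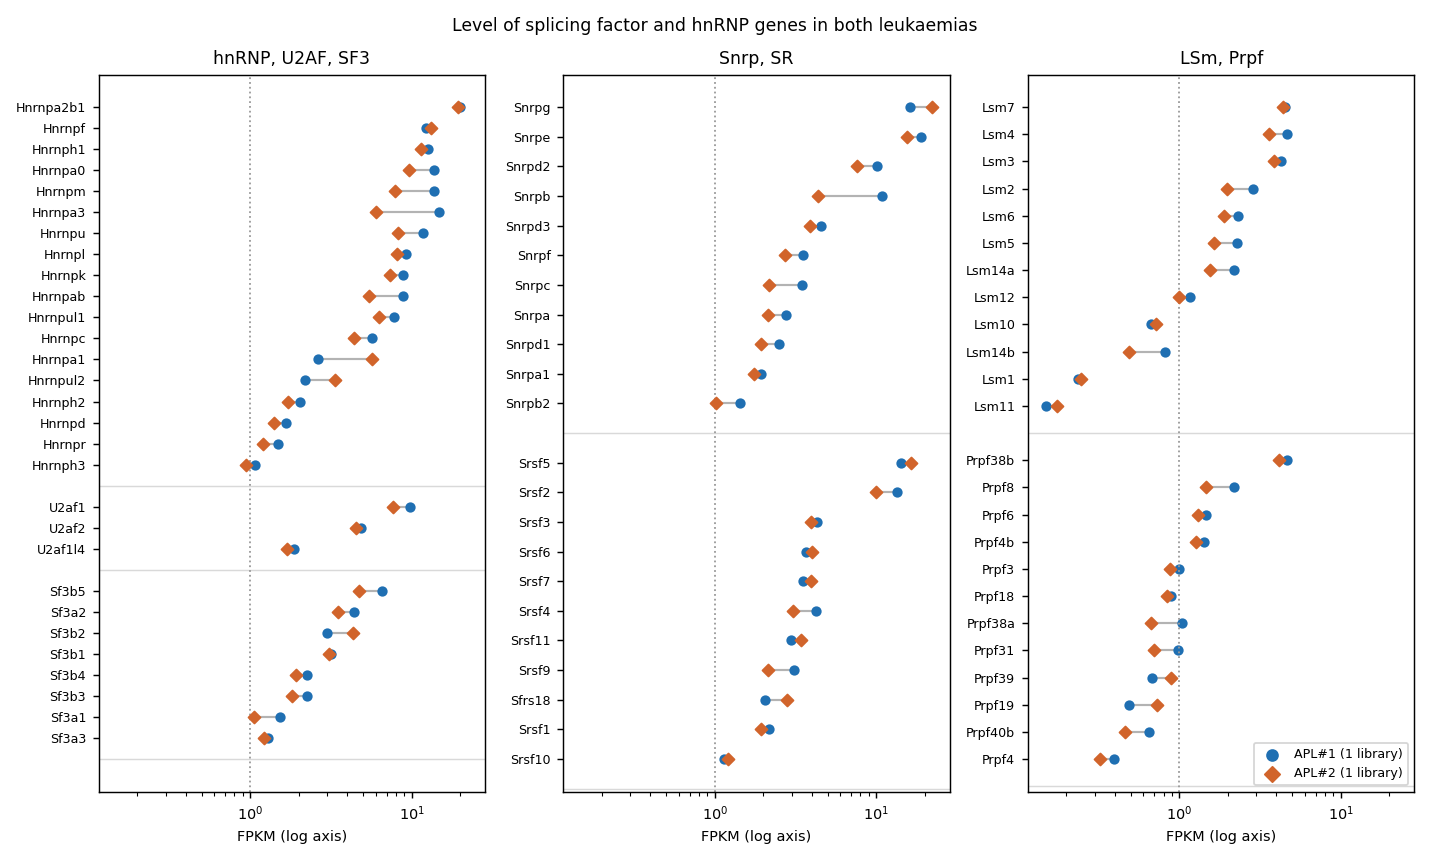
FPKM on a log axis in APL#1 (circles) and APL#2 (diamonds), 1 library each, for 75 of the 76 members above 0 in both libraries, grouped by family and ordered by mean; the dotted line marks FPKM 1. Most pairs lie close together with APL#2 slightly to the left, and the widest gaps are those of Hnrnpa3 and Snrpb (lower in APL#2) and Hnrnpa1 (higher).

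In the authors' deposited table no member had a q of at most 0.05, a threshold passed by 11 of all genes (0.0473%). No measured member had a p below 0.05 there, against 1.56% of all measured genes. The smallest p of a member in the authors' deposited table was that of Hnrnpa3 (p 0.0643, q 0.999997), followed by Snrpb (p 0.117). These values compare 2 libraries and rest on the authors' model of variability. Dividing each log2 ratio by the test statistic in the authors' deposited table gives the standard error that test implies, with a median of 0.90 (log2) over the 64 measured members. Over all measured genes that median was 0.96. Only Hnrnpa3, Snrpb and Hnrnpm had a log2 ratio at or above their own implied error, and the other 61 lay below it. This count was not made over all measured genes, so it shows nothing particular to the members.

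The hnRNP genes were the most highly expressed family. All 18 were measured, with a median of the mean FPKM of 7.62, against 3.66 over all measured members and 2.04 over all measured genes. Hnrnpa2b1, which encodes the abundant hnRNP A2 and B1 proteins of RNA packaging and transport, had the highest mean of the 78 members, at 19.9 FPKM in APL#1 and 19.3 in APL#2, where Snrpg stood above it. Hnrnpf and Hnrnph1, which encode proteins that bind G-rich stretches, stood at 12.3 and 13.2 FPKM and at 12.7 and 11.4. These levels differed by less than 1.5-fold between the libraries. Hnrnpk, a poly(C)-binding protein gene, stood at 8.87 and 7.32 FPKM, and Hnrnpl, which binds CA-rich RNA and regulates the splicing of CD45, at 9.20 and 8.08. As a family the hnRNP genes lay at a median of -0.003 relative to all genes, with 9 above and 9 below, but they also spanned the widest range of the 7 families, from -0.997 to 1.06.

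The members of the hnRNP A/B group were at the ends of that range. Hnrnpa3, which encodes a close relative of hnRNP A2, was at 14.8 FPKM in APL#1 and at 6.05 in APL#2. This was a 2.45-fold higher level in APL#1 and the lowest relative difference of the measured members. Hnrnpa1, the classic repressor of exon inclusion, went the other way, at 2.64 and 5.72 FPKM, a 2.17-fold higher level in APL#2 and the highest relative difference (1.06). Between them lay Hnrnpa0 (13.7 and 9.58 FPKM) and Hnrnpab (8.80 and 5.47), both lower in APL#2. Each gene's share of the FPKM summed over these 5 genes shows the shift in make-up: Hnrnpa1 made up 4.41% in APL#1 and 12.4% in APL#2, and Hnrnpa3 24.8% and 13.1%. Hnrnpa2b1 held the largest share in both, 33.2% and 41.9%.

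Hnrnpa1 and Hnrnpa3 are also the members with the most copies in the genome, and their values are uncertain for that reason. By shared 25-base words, 33 annotated pseudogenes resembled Hnrnpa3 and 12 resembled Hnrnpa1, whereas no other member had more than 6 and 44 of the 78 had none. The table holds a second row at the Hnrnpa1 locus, labelled jointly with Gm10052 and outside the symbol rule, at 0.820 FPKM in APL#1 and 4.66 in APL#2. Summed, the 2 rows came to 3.46 and 10.4 FPKM, a ratio of 2.998 toward APL#2. The joint row cannot be assigned to Hnrnpa1 alone. At the Hnrnpa3 locus the table lists Gm6793 at 22.1 and 9.03 FPKM, a ratio of 2.45 toward APL#1, the same as for Hnrnpa3 itself. Both rows were looked at after the values of the members were seen, and how reads were divided among the rows and the copies was not tested. In all, 12 members share part of their locus with another row of the table, among them Hnrnpab with Agxt2l2, Sfrs18 with 4930528A17Rik, Snrpa with BC024978 and Snrpf with Ccdc38. Whether the counting used strand is not stated, so reads of such pairs may not have been told apart.

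The promoters of these 2 members are shown because they differ most within 1 protein group. The sequences are the 100 bases before the annotated start, 5′ to 3′ on the strand of the gene, from RefSeq on GRCm38.p6, and capitals mark any of 3 short words, named after the sequences, on either strand. Hnrnpa1 lies at chr15:103240297-103240396 on the plus strand and Hnrnpa3 at chr2:75659159-75659258 on the plus strand.
Hnrnpa1: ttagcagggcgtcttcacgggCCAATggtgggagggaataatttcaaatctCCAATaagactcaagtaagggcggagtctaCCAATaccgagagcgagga
Hnrnpa3: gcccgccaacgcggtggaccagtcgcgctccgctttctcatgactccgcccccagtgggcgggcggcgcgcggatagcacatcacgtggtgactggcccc
The stretch before Hnrnpa1 holds the word CCAAT 3 times, and none of the words searched occurs in that before Hnrnpa3. Of stretches extracted but not shown, those of Snrpg, Sf3b2 and Hnrnpa2b1 hold CCAAT too, and that of Snrpe holds none of the words. Hnrnpa2b1 was almost equal in both libraries, and a link of these words to the levels was not tested. Windows of 300 bases around the start were found for 66 members (89 windows), of which 48.3% held CCAAT, against 39.0% of windows of measured genes and 37.4% of all 32851 windows. The word CCGGAAG, the core of many ETS factor sites, was in 28.1% of member windows, in 21.5% of windows of measured genes and in 8.86% of all windows. The TATAAA word was in 7.87% of member windows, 7.57% of windows of measured genes and 13.6% of all.

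Of the other hnRNP genes, Hnrnpm, which encodes a regulator of alternative exons, stood at 13.7 and 7.86 FPKM, a 1.74-fold higher level in APL#1. Hnrnpu, the scaffold attachment protein gene, stood at 11.8 and 8.19 FPKM, with a ratio of 1.44 toward APL#1. Hnrnpul2, a relative of Hnrnpu, was higher in APL#2 instead, at 2.18 and 3.34 FPKM. At the low end of the family, Hnrnph3 stood at 1.07 and 0.949 FPKM.

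Relative to all genes, SR protein genes leaned toward APL#2, whereas their summed FPKM was 54.8 in APL#1 and 53.0 in APL#2. Of 11 measured SR genes, 8 lay above the all-gene median, with a family median of 0.22. As FPKM stands, 6 of the 11 were higher in APL#2, against 1163 of all 4100 measured genes, and the family median was 0.0486. Srsf5 was the highest SR gene at 14.2 FPKM in APL#1 and 16.5 in APL#2. Sfrs18, now called Pnisr, a gene of an SR-related nuclear protein, stood at 2.04 and 2.80 FPKM, the widest difference in the family relative to all genes (0.49), though not as it stands. Srsf11 (2.98 and 3.41 FPKM), Srsf7 (3.52 and 3.96), Srsf6 (3.65 and 4.02) and Srsf10 (1.14 and 1.21) were slightly higher in APL#2.

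The other 5 measured SR genes had lower values in APL#2, 3 of them also relative to all genes. Srsf2, whose protein binds exonic enhancers, stood at 13.5 and 10.0 FPKM, the lowest relative difference among SR genes (-0.23). Srsf9 (3.09 and 2.13 FPKM) and Srsf4 (4.25 and 3.05) were also lower on both counts. Srsf3, the shortest classical SR protein, and Srsf1, the founding SR protein also called SF2, stood at 4.28 and 3.97 FPKM and at 2.16 and 1.94, slightly above the all-gene median (0.09 and 0.07). Srsf12 was listed at 0 in both libraries. No SR gene differed by as much as 1.5-fold, and the implied standard errors of the family, such as 0.65 for Srsf5 and 0.74 for Sfrs18, are wider than its differences.

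**Figure D2:**
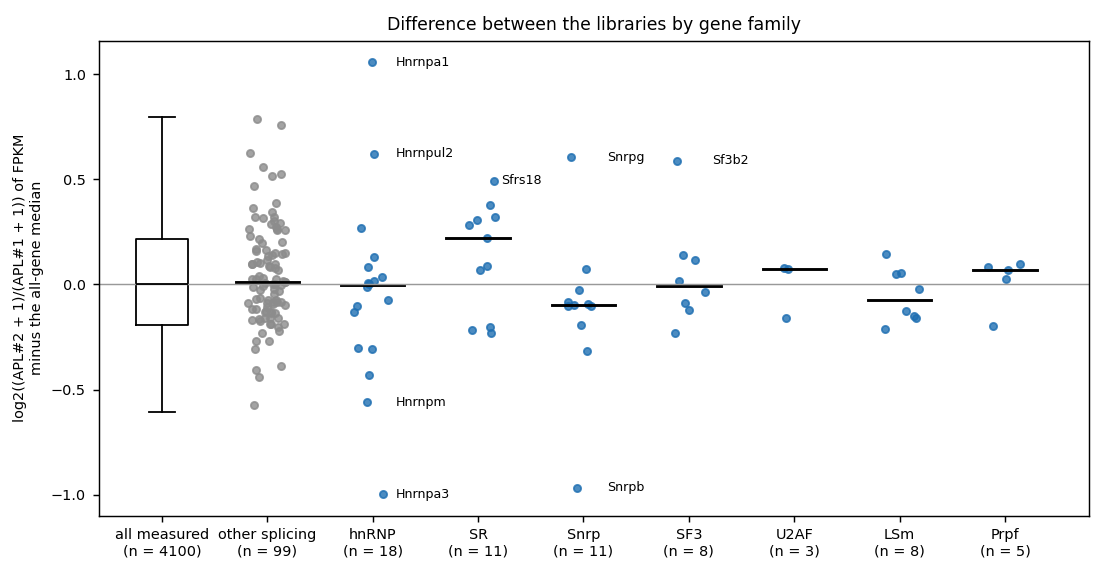
Difference between the libraries on the log2(FPKM + 1) scale relative to the median of all measured genes, for each member (points, bars at the family median), for other splicing genes and for all measured genes (box of the quartiles, whiskers at the 5th and 95th percentiles). SR genes are centred at 0.22 and Snrp genes at -0.10, and Hnrnpa1, Hnrnpa3 and Snrpb lie farthest from 0.

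Snrp genes, which encode the proteins of the small nuclear ribonucleoproteins, lay slightly toward APL#1. Of 11 measured Snrp genes, 9 were below the all-gene median, with a family median of -0.10. The 7 genes of the Sm ring, the ring of proteins that holds each spliceosomal RNA other than U6, encode partners that assemble in equal numbers, but their RNA levels were far from equal. Snrpe (18.98 FPKM in APL#1 and 15.5 in APL#2) and Snrpg (16.2 and 22.3) were the highest. Snrpd1 was the lowest at 2.51 and 1.94 FPKM, so the highest gene of the ring exceeded it by 7.55-fold in APL#1 and 11.5-fold in APL#2.

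A pair of genes of the ring departed from the others. Snrpb, which encodes the SmB and SmB' proteins, stood at 10.9 and 4.39 FPKM, a 2.48-fold higher level in APL#1. Snrpg, which encodes SmG, was 1.37-fold higher in APL#2 and had 3 pseudogene copies. The other 5 genes of the ring lay between -0.19 (Snrpd2, 10.1 and 7.62 FPKM) and -0.02 (Snrpd3, 4.59 and 3.88) relative to all genes. As a share of the FPKM summed over the ring, Snrpb made up 16.3% in APL#1 and 7.52% in APL#2, and Snrpg 24.3% and 38.2%. Snrpn, the imprinted relative of Snrpb that is known from brain, was at 0.00934 FPKM in APL#1 and listed at 0 in APL#2.

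**Figure D3:**
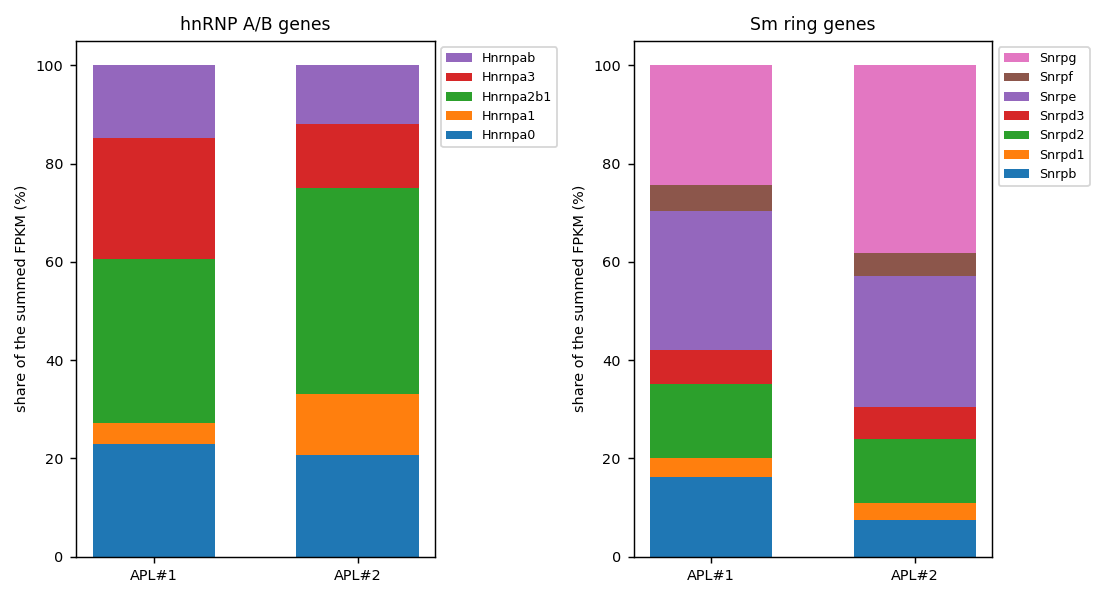
Share of the summed FPKM held by each gene of the hnRNP A/B group and of the Sm ring, in percent, in the 1 library of each leukaemia. Hnrnpa1 is larger (4.41% and 12.4%) and Hnrnpa3 smaller (24.8% and 13.1%) in APL#2, and in the ring Snrpg is larger (24.3% and 38.2%) and Snrpb smaller (16.3% and 7.52%).

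Of the members specific to single snRNPs, Snrpc, of the U1 snRNP that recognises the 5′ splice site, stood at 3.46 and 2.18 FPKM, a ratio of 1.59 toward APL#1. Snrpa, also of U1, stood at 2.78 and 2.13 FPKM. Of the U2 snRNP, which binds the branch point, Snrpa1 stood at 1.94 and 1.75 FPKM and Snrpb2 at 1.43 and 1.02.

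SF3a and SF3b, the complexes that anchor the U2 snRNP at the branch point, had a median of -0.01 over 8 measured genes, with 4 above and 4 below the all-gene median. Sf3b1, the largest subunit and the one most often mutated in myelodysplasia, was almost equal at 3.18 FPKM in APL#1 and 3.09 in APL#2. Sf3b2, another large subunit, was the member of the family that stood apart, at 3.01 and 4.35 FPKM, 1.44-fold higher in APL#2. Sf3b5, a small subunit and the highest gene of the family, stood at 6.56 and 4.73 FPKM. The other 5 SF3 genes had lower FPKM in APL#2 and lay between -0.12 and 0.12.

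U2AF recognises the 3′ splice site. U2af1, its small subunit, was at 9.85 FPKM in APL#1 and at 7.63 in APL#2, and U2af2, the large subunit that binds the polypyrimidine tract, at 4.88 and 4.52. The related U2af1l4 was at 1.88 and 1.69 FPKM. All 3 were lower in APL#2 by less than 1.5-fold, and relative to all genes they lay between -0.16 and 0.08.

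LSm genes fall into different machines. Lsm2 to Lsm7 belong to the ring that holds U6, and all 6 were lower in APL#2, 4 of them below the all-gene median. Lsm7 had the highest mean, at 4.50 and 4.404 FPKM, although Lsm4 (4.67 and 3.61) stood above it in APL#1. Lsm2 differed most, at 2.87 and 1.96. The others were Lsm6 (2.30 and 1.88), Lsm3 (4.30 and 3.86) and Lsm5 (2.29 and 1.63). The ring genes thus lay within 2.03-fold of each other in APL#1 and 2.70-fold in APL#2, a narrower range than that of the Sm ring. The current symbol Lsm8 matches a row named Naa38 through RefSeq synonyms, outside the rule, at 2.98 and 3.05 FPKM.

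Of the LSm genes outside that ring, 4 had a mean FPKM under 1. Lsm1, which takes the place of Lsm8 in the cytoplasmic ring of mRNA decay, stood at 0.235 and 0.247 FPKM. Lsm10 (0.666 and 0.718) and Lsm11 (0.148 and 0.176) belong to the U7 particle, which processes histone transcripts. Lsm14b, a protein of cytoplasmic mRNA granules, stood at 0.818 and 0.486 FPKM, and its relative Lsm14a was higher, at 2.19 and 1.54.

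Prpf genes were the lowest family, with 5 of 13 measured and all 5 lower in APL#2 by under 1.5-fold. Of all measured genes 71.6% were lower in APL#2. Relative to all genes 4 of the 5 lay above the median and 1 below, with a family median of 0.07. Prpf38b, a relative of the activation factor Prpf38a, led at 4.67 and 4.12 FPKM. Prpf8, the scaffold at the heart of the spliceosome, stood at 2.18 and 1.46 FPKM, a ratio of 1.49 and the lowest relative difference of the family (-0.20). Prpf6 (1.47 and 1.30 FPKM) bridges particles of the tri-snRNP. The genes below the level cut included Prpf18 (0.894 and 0.836 FPKM), of the second splicing step, and Prpf19 (0.490 and 0.725), the ubiquitin ligase of the complex named after it, which was higher in APL#2. Prpf39 (0.682 and 0.888) was the other Prpf gene with a higher value in APL#2.

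Position in the genome went along with several of the departures. Earlier results on these libraries showed a stretch of chromosome 2 with low values in APL#2 and a stretch of chromosome 6 and all of chromosome 19 with high values, so the following is a description of the same differences and no separate support. Hnrnpa3 (mm9 chromosome 2, 75497316 to 75507464) and Snrpb (mm9 chromosome 2, 129997372 to 130005100), the 2 members at least 2-fold lower, both lie in the low stretch. The other 70 measured genes of that stretch had a median of -0.59 and quartiles of -0.76 and -0.39. Both members (-0.997 and -0.967) stood lower than the lower quartile of the stretch. The scale understates differences of low genes, and the mean FPKM of Hnrnpa3 and Snrpb was 10.4 and 7.63. Over all measured genes the median of the mean was 2.04, and the part of level in these places was not tested. On the rest of chromosome 2, Srsf6, Prpf6 and Snrpb2 stood at 0.28, 0.07 and -0.09.

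On chromosome 19 all 3 members had higher values in APL#2. Hnrnpul2 and Sf3b2 stood at 0.62 and 0.59 relative to all genes, beside a median of 0.60 over the other 132 measured genes of the chromosome, and Prpf19, under the level cut, had a ratio of 1.48. In the chromosome 6 stretch, Snrpg (0.60) lay above the upper quartile (0.52) of the other 150 measured genes. Hnrnpf (0.27) lay near their median (0.30) and Lsm3 (0.05) under their lower quartile (0.15). Snrpg is a high gene too (mean FPKM 19.3), and the part of level was again not tested. Hnrnpa2b1 (0.13) and Lsm5 (-0.15), on the rest of chromosome 6, lay on either side of 0. Hnrnpa1 (mm9 chromosome 15, 103070863 to 103075386) lies in none of these stretches.

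**Figure D4:**
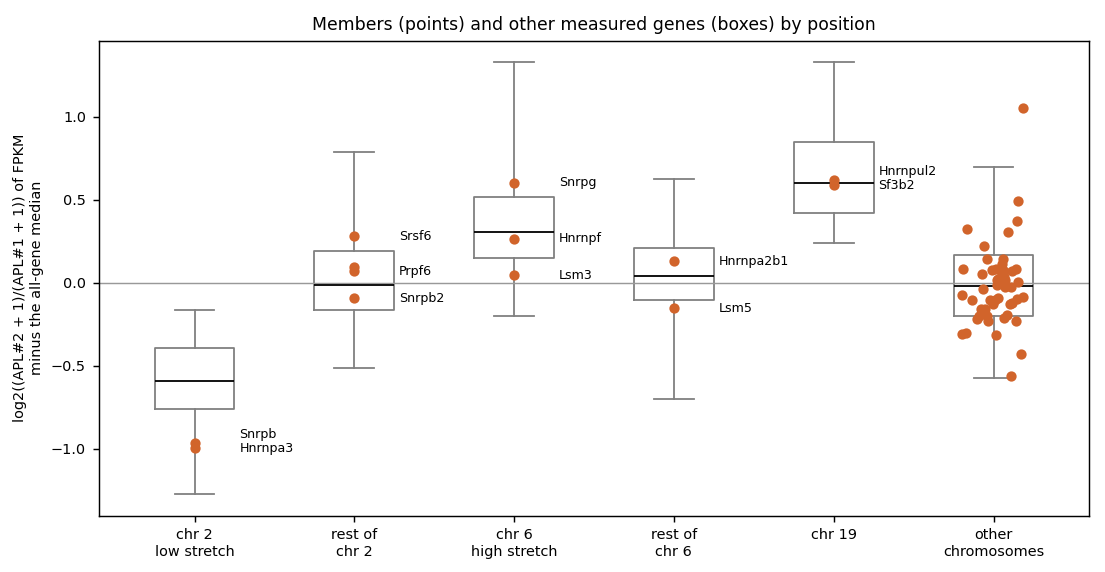
Relative difference (log2 of FPKM + 1, minus the all-gene median) of measured members (points) and of the other measured genes (boxes of the quartiles, whiskers at the 5th and 95th percentiles) by position. Hnrnpa3 and Snrpb lie with the low chromosome 2 stretch, Hnrnpul2 and Sf3b2 at the median of chromosome 19, and the highest point among other chromosomes is Hnrnpa1.

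Outside the 3 stretches the members were close to the background in relative difference. Of 57 measured members there, 56 lay within 1.5-fold of the all-gene median, the exception being Hnrnpa1, and 88.5% of all measured genes outside the stretches did so. Their median was -0.02, as was that of all measured genes there. By FPKM as it stands, 87.7% of these measured members were lower in APL#2, against 75.3% of all measured genes there. The sum of FPKM over the 70 members outside the stretches was 301.8 in APL#1 and 253.7 in APL#2. Over all 20911 genes there it was 33098.9 and 33119.7. A sum weighs the highest genes most, so these sums do not describe the typical gene. Plain log2 ratios were also set against their median over all measured genes. On that scale the median was -0.0156 for the 57 members and -0.0254 for all measured genes outside the stretches.

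Other splicing genes, from a list of 142 names outside the symbol rule of which 138 were in the table, showed the same closeness. Of 99 measured, 54 lay above and 45 below the all-gene median, with a median of 0.01. None was at least 2-fold higher or lower on log2(FPKM + 1), against 2.10% and 2.44% of all measured genes. By the plain ratio, Ppil1 was 2.12-fold higher in APL#1, and 6.83% of all measured genes were at least 2-fold lower in APL#2. The genes of the list in the chromosome 2 stretch were all under the level cut. The widest differences toward APL#2 were those of Luc7l2, a U1-associated factor (9.44 and 15.0 FPKM), Sf1, the branch point binding protein gene on chromosome 19 (2.92 and 4.89), Tra2a, an SR-like activator (4.02 and 5.86), and Clk4, a kinase of SR proteins (2.26 and 3.27). Toward APL#1 they were those of Ppil1, a cyclophilin of the spliceosome (3.25 and 1.54 FPKM), Raly, an hnRNP C relative (23.3 and 14.9), Rbm3, the cold-inducible RNA-binding protein gene (9.98 and 6.36), and Puf60, a U2AF-like factor (5.71 and 3.55). All 8 lay within the range of the members themselves. Outside the naming rule, and chosen once the values were known, are Hnrnpk, Hnrnpl, Hnrnph3, Srsf1, Srsf3, Srsf4, Srsf10, Srsf12, Snrpa, Snrpa1, Snrpd1, Snrpd2, Snrpd3, Sf3b1, U2af1l4, Lsm1, Lsm4, Lsm6, Lsm10, Lsm11, Lsm14a and Prpf39.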

How the data were processed

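RNA was sequenced from CD45.2+ leukaemic cells, 1 library for APL#1 and 1 for APL#2. Per the submitters' processing notes, mm9 is the build named and TopHat2 2.0.10, Cufflinks and Cuffdiff were among the tools, their roles unstated. The annotation, strandedness and scaling method were not given. The authors deposited 1 gene table, whose 2 value columns were read as FPKM from its Cuffdiff layout, since the header names no unit. It also holds, per the file headers, a test statistic (a score) and a p-value and q-value per gene, used as the authors' own; the standard errors derived from the statistic are computed here.

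Differences used a pseudocount of 1, which understates those of low genes, and a gene counted as measured when its FPKM averaged 1 or more over both libraries (4100 genes). No test was run. Depth came from the spacing of low values (25 genes with 1 transcript of at least 1500 bases). The errors given for FPKM 1 therefore cover counting only, whereas the implied standard errors rest on the authors' model of variability. Interval starts in the table were shifted by 1 base, because end minus start matched RefSeq gene lengths in 7152 genes and end minus start plus 1 in 452. Copies were pseudogenes of GENCODE M21 with at least 20% of their 25-base words in a member's transcripts. The calculation was tested on simulated data. Python 3.11.15 and pandas 2.3.3 were used.

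Members, lists and stretches were chosen with earlier results of these data known. Named members were the 10 highest by level, the 10 largest differences in each direction, the highest member and the ends of each family, members at 0 in 1 library, and members on chromosomes 2, 6 and 19; of other splicing genes, the 4 largest differences in each direction. Alternatives were pseudocounts of 0.1 and 5, other level filters, scaling to the 75th percentile, no centring, and leaving out chromosomes 2, 6 and 19 or genes at 0. Values of 1 member are not reported here by name.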

Additional observations from a re-analysis of the deposited data

How the results depend on the processing

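No paired analysis was possible because each leukaemia has 1 library and the labels give no shared replicate numbers. With a pseudocount of 0.1 and with scaling to the 75th percentile, 1 member (Hnrnpa1) in place of 0 was at least 2-fold higher. Of all measured genes, 3.22% and 3.32% were. The same held relative to the all-gene median (2.93% of all measured genes) and by plain ratio (3.39%), both chosen after seeing the data. With a pseudocount of 5, 0 members in place of 2 were at least 2-fold lower (1.10% of all measured genes). The count was also 0 with scaling and relative to the all-gene median (1.76% of all measured genes in each). It was 0 without chromosomes 2, 6 and 19, which hold both genes (2.23% of the other measured genes). The SR median of 0.22 was 0.33 with a pseudocount of 0.1, 0.0906 with 5, 0.10 without a level filter, and 0.0486 without centring. At a mean FPKM of at least 5 it was 0.0565 over only 2 genes, which went opposite ways (Srsf5 at 0.36 and Srsf2 at -0.25). Without a filter (above 0 in both libraries, 76 members) 20 members lay above and 56 below the all-gene median, which then was -0.05; the medians were -0.11 for members, -0.13 for hnRNP, -0.22 for Snrp, -0.13 for SF3, -0.0514 for U2AF, -0.0418 for Prpf and -0.10 for other splicing genes. At a mean FPKM of at least 5 (20 members) 5 lay above and 15 below, with medians of -0.16 for members, -0.13 for hnRNP and 0.13 for other splicing genes. Without centring 11 had a higher and 53 a lower value in APL#2, with medians of -0.17 for members, -0.17 for hnRNP, -0.27 for Snrp, -0.18 for SF3, -0.10 for U2AF, -0.25 for LSm, -0.10 for Prpf and -0.16 for other splicing genes. The position of the members as a whole thus depends on the filter and the centring; the cause was not tested. No difference of a named gene past 2-fold changed sign. Depth limits the low members most, such as Lsm11 and Prpf4, and without replicates no alternative measures the spread between samples.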

Other observations

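Some genes of the SR and SR-related group outside the symbol rule were higher in APL#2 and others were lower. They were chosen here after their values were seen. Of the 99 measured genes of the other splicing list, 25 were higher in APL#2, against 1163 of all 4100 measured genes, so no pattern can be read from these genes. The SR protein kinase genes Clk1 (4.52 and 5.77 FPKM) and Clk2 (1.84 and 2.04) were higher in APL#2, whereas Clk3 (2.18 and 1.81) was not, and Srpk1 (1.89 and 1.75) and Srpk2 (1.54 and 1.53) were nearly equal. Srrm2, a large SR-related scaffold, stood at 5.04 and 6.72 FPKM, but its partner Srrm1 at 3.49 and 2.80. The U1-associated genes Luc7l (1.92 and 2.38 FPKM) and Luc7l3 (1.63 and 1.87) were higher in APL#2. Snrnp70, of the U1 snRNP itself, was nearly equal (13.7 and 14.4 FPKM). Tra2b, the close relative of Tra2a, stood at 4.31 and 3.57 FPKM.

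The factors that load Sm proteins onto RNA differed little where they were measured. Smn1 stood at 1.86 and 1.56 FPKM, Gemin7 at 4.22 and 3.61, and Prmt5, the methyltransferase that modifies Sm proteins, at 1.76 and 1.45. Strap, of the same machinery and in the chromosome 6 stretch, was higher in APL#2 at 1.91 and 2.33 FPKM, as were all 6 measured genes of the other splicing list in that stretch relative to the all-gene median. Snrnp200, the helicase of the U5 snRNP in the chromosome 2 stretch, stood at 1.40 and 0.591 FPKM, a ratio of 2.37 toward APL#1. All were named after their values were seen.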
